A study of Mus musculus with 24 samples.

Results

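The Notch genes described here are the receptors Notch1 and Notch2, the ligands Dll1, Dll3 and Jag1, and the transcription factors Hes1, Hes5, Hes6, Hey1 and Hey2. They are 10 of the 55938 genes in the count table, picked by gene symbol, and all 10 passed the filter on low counts in every comparison. PDGFB had been delivered in utero to the telencephalic ventricles of mouse embryos, and the 12 gliomas that followed were dissected under fluorescence, dissociated and sorted. Each tumour gave a library of fluorescent glioma cells and a library of surrounding cells without fluorescence, 24 in all. The labels give 4 asymptomatic mice at 33 to 34 days after transduction (tumours 3228A, 3228B, 3228D and 3229B). They give 8 mice with symptoms, divided here by the letters that end their labels into an early group at 35 to 50 days (3108C, 3108D, 3109D and 3145A) and a late group at 100 to 175 days (3054A, 3054B, 3054C and 3057E). Every mouse received PDGFB, so no brain without a tumour is among the libraries, and surrounding cells were set apart only by their lack of fluorescence. The label of the glioma library 3057E names a red sort gate where those of the other 11 name GFP. Strain and sex are not given in the sources used here. No leading number of a tumour code occurs in more than 1 stage, so stage, time after transduction and code series cannot be told apart.

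In Notch signalling a ligand of the Delta-like or Jagged family on a cell binds a Notch receptor on its neighbour. The receptor is then cut by ADAM proteases and gamma-secretase, and its intracellular part joins RBPJ and Mastermind-like proteins to switch on Hes and Hey repressors, which in turn hold down proneural transcription factors. In the brain the pathway keeps neural stem cells undifferentiated and restrains the differentiation of oligodendrocyte precursor cells (OPCs), the cell type that PDGF signalling expands.

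Library totals ran from 9075571 to 15471169 counts. The 12 OPC markers summed to 13800 to 22200 CPM (counts scaled to library size, with TMM factors) in every glioma library. In surrounding libraries the same sum was 5640 to 15900 CPM in the asymptomatic and 7490 to 15500 in the early group. The late surrounding libraries lay at 4940, 3160, 868 and, for 3057E, 13700 CPM. OPC transcripts were thus present in all surrounding libraries and varied most at the late stage. The 10 microglia markers summed to 113 to 608 CPM in 11 glioma libraries and to 3870 to 12600 in 11 surrounding libraries, but to 1750 in glioma 3057E and 1590 in its surrounding cells, so the populations of 3057E were not apart by these markers. The codes 3108D and 3109D did not match between the populations: Xist stood at 1590 CPM in glioma 3108D against 2.08 in its surrounding library, and at 1.89 in glioma 3109D against 1080 in its surrounding library. Both tumours are of the early group, so group means are unaffected, but the pairs within a tumour are not. Counts of pairs below follow the codes as labelled.

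Exon length was that of all annotated exons of a gene merged (14.23 kb for Notch1, 10.78 kb for Notch2), and levels per kilobase depend on it. Per kilobase of exon, Notch1 was the member with the highest median level in both populations (13.3 CPM per kb in glioma and 10.8 in surrounding libraries). In glioma cells it was followed by Dll3 at a median of 12.5 CPM per kb, then Hey1 at 8.42, Hes1 at 6.18, Dll1 at 5.17, Hes6 at 5.09, Hey2 at 5.02, Jag1 at 3.37, Hes5 at 0.975 and Notch2 at 0.594. Many neighbours in that order could not be separated: Notch1 exceeded Dll3 in 7 of 12 glioma libraries, Dll1 exceeded Hes6 in 7, Hes6 exceeded Hey2 in 6, and Hey2 exceeded Jag1 in 7. In surrounding cells the medians after Notch1 were Hes1 at 7.27 CPM per kb, Notch2 at 6.72, Hey1 at 5.79, Dll3 at 4.66, Hes6 at 4.62, Jag1 at 4.25, Hey2 at 3.93, Dll1 at 2.96 and Hes5 at 0.715. There, Hes1 exceeded Notch2 in only 4 of 12 libraries, and from Notch2 down to Hey2 each gene exceeded the next in 5 to 7. The orders thus differed in the place of Notch2, last by median in glioma cells and near the top in surrounding cells, and in that of Dll3. Hes5 exceeded Notch2 in 8 of 12 glioma libraries. In the late glioma group alone the median of Notch2 (1.12 CPM per kb) was slightly above that of Hes5 (1.08).

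**Figure D1:**
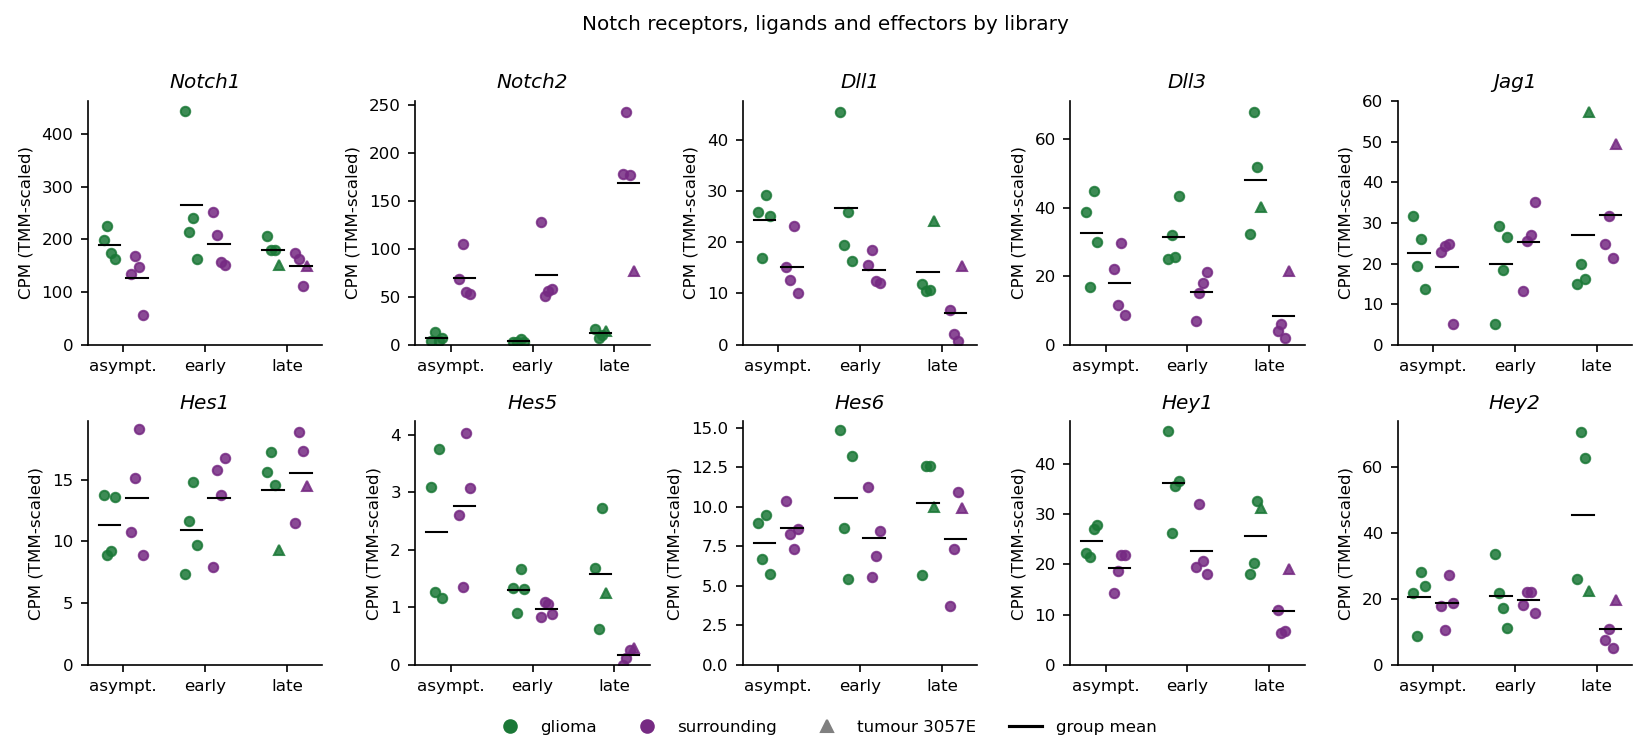
Level of each of the 10 members in all 24 libraries, in CPM scaled by TMM on a linear axis from 0, with asymptomatic (asympt.), early and late symptomatic libraries from left to right. Green points are glioma and purple points surrounding libraries, triangles mark tumour 3057E, and bars are means of 4 libraries. Notch2 is below 16.2 CPM in every glioma library and at 50.6 or more in every surrounding library, and late surrounding points of Dll1, Dll3, Hey1 and Hey2 are low except for the triangle.

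Averaged over the 3 stages, 7 of the 10 members differed between glioma and surrounding cells at an adjusted p under 0.05 (edgeR's quasi-likelihood test, Benjamini-Hochberg over 18810 genes). Notch1, Dll1, Dll3, Hes5, Hey1 and Hey2 were higher in glioma cells and Notch2 was lower, while Jag1, Hes1 and Hes6 did not pass. Of all genes tested, 46.3% passed in this comparison, 22% higher and 24.2% lower in glioma cells. The median log2 fold change of the 10 members was 0.60, against 0.06 over all genes tested. Within the stages, 1 member passed in the asymptomatic group (13.8% of all genes passed), 1 in the early group (13.5%) and 5 in the late group (35.3%, with 15.4% higher and 19.9% lower).

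**Figure D2:**
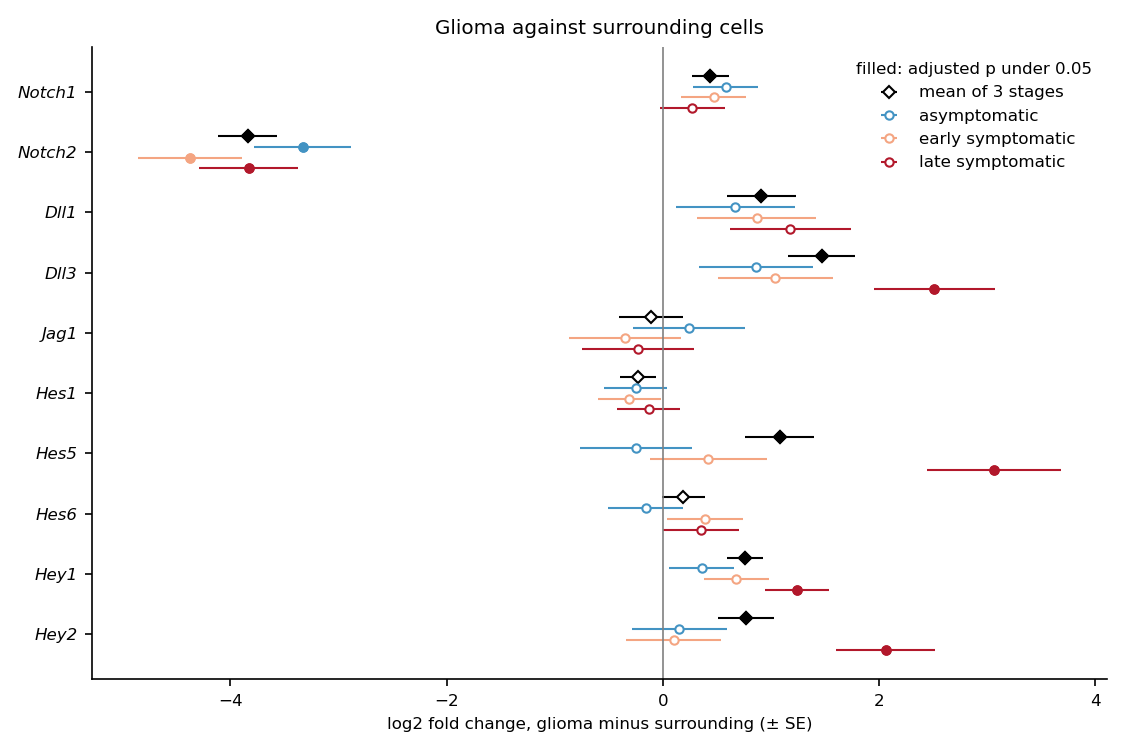
Log2 fold change of each member, glioma minus surrounding cells, with its standard error (horizontal bars), averaged over the 3 stages (diamonds) and within each stage (circles). Filled symbols have an adjusted p under 0.05. Notch2 is filled at every stage at values from -4.37 to -3.33, and Dll3, Hes5, Hey1 and Hey2 are filled at the late stage.

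Notch2, 1 of the 2 receptors of the set, showed the widest separation of any member. It lies at chr3:98013527-98150361 on the plus strand (GRCm38) and overlaps the annotated genes Gm42819 and Gm42820 on the same strand. Its expected counts were not whole in 13 libraries, so part of its count rests on how shared reads were divided. Glioma libraries held 4.29, 12.8, 3.58 and 7.15 CPM in the asymptomatic group, 2.58, 2.58, 5.84 and 3.03 in the early group, and 16.1, 6.98, 10 and 14.2 in the late group (tumours in the order named in the opening). Surrounding libraries held 67.9, 105, 55.0 and 52.4 CPM in the asymptomatic group, 128, 50.6, 55.8 and 57.5 in the early group, and 178, 242, 177 and 77.0 in the late group. The highest glioma library was far below the lowest surrounding library, and the surrounding cells of 3054A, 3054B and 3054C were the highest of all. Over the 3 stages Notch2 was 14.4-fold lower in glioma cells (log2 fold change -3.84 ± 0.27 SE, adjusted p = 8.87e-10, lower in 12 of 12 pairs). The difference was called at each stage: -3.33 ± 0.45 (adjusted p = 6.27e-05), -4.37 ± 0.48 (8.13e-06) and -3.83 ± 0.46 (6.61e-06) in stage order. In sorted bulk RNA, fewer cells of a type and less RNA per cell cannot be told apart. The microglia sum given above moved in the same direction as Notch2, and all 10 of its genes were called lower in glioma cells at each stage. So did the 10 endothelial markers, which summed to 5.85 to 136 CPM in glioma and 96.1 to 298 in surrounding libraries, and the 10 pericyte and smooth muscle markers, at 3.42 to 40.1 and 57.1 to 390, and no marker of these lists was at 0 throughout a group. Their part in the Notch2 difference was not tested. In the pair 3057E, Notch2 was 14.2 CPM in glioma and 77.0 in surrounding cells, and the microglia sums were 1750 and 1590. The endothelial sum of that pair was 7.2 against 96.1 CPM and the pericyte and smooth muscle sum 7.36 against 60.2. Other marker sums of the pair differed too, such as the fibroblast and meningeal sum (9.02 against 684). This is 1 pair, and the part of these cell types in its Notch2 difference was not tested.

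Notch1, the receptor best known from neural stem cells, differed far less. It lies at chr2:26457903-26516663 on the minus strand and overlaps 2 transcripts of the opposite strand and a microRNA, and its expected counts were not whole in 15 libraries, so part of its count rests on how shared reads were divided. The glioma levels were 198, 225, 173 and 162 CPM in the asymptomatic group, 443, 214, 241 and 164 in the early group, and 206, 179, 181 and 150 in the late group. Surrounding levels were 135, 168, 148 and 55.6 CPM, then 252, 208, 156 and 151, then 174, 162, 111 and 149. Ranges overlapped at every stage, although the glioma library was the higher of the pair in 12 of 12 tumours. Notch1 was 1.36-fold higher in glioma cells over the 3 stages (log2 fold change 0.44 ± 0.17, adjusted p = 0.04). That call was lost on leaving out any tumour but 3108D, at adjusted p from 0.0501 (without 3145A) to 0.0983 (without 3229B), and in 16 of 21 alternatives. With the tumour code as a block it was kept (0.45 ± 0.12, adjusted p = 0.0079), and Notch1 then also passed within the asymptomatic group (0.68 ± 0.22, adjusted p = 0.0473; 0.58 ± 0.30, adjusted p = 0.213 without the block).

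The balance of the 2 receptors therefore differed in every library. Counts of Notch1 per kilobase were 8.0 to 130 times those of Notch2 in glioma libraries (median 25.4) and 0.475 to 3.11 times in surrounding libraries (median 1.48). Glioma medians were 26.1, 51.8 and 11.7 in the asymptomatic, early and late groups. Surrounding medians were 1.36, 2.06 and 0.623 in the same order, so in both populations the ratio was highest in the early and lowest in the late group. These ratios describe unequal levels within a library, depend on the exon lengths used and carry no test.

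**Figure D3:**
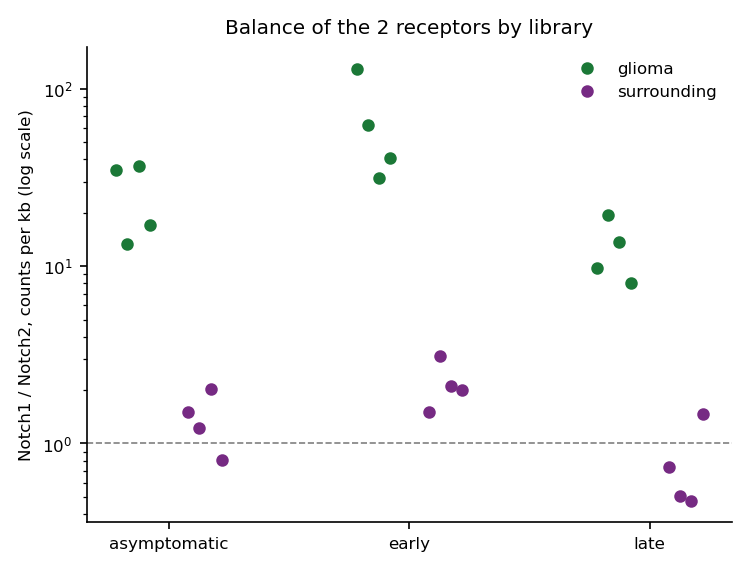
Ratio of Notch1 to Notch2 counts per kilobase of exon in each library, on a log axis, by stage. Green points are the 12 glioma and purple points the 12 surrounding libraries, and the dashed line marks a ratio of 1. All glioma points lie at 8.0 or above and all surrounding points at 3.11 or below.

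Dll3 is a divergent ligand that acts within the cell that makes it and is a known marker of proneural glioma. Dll1 is the classical Delta-like ligand of neural progenitors. Both were higher in glioma cells. Their promoter windows are shown because each holds the E-box CAGCTG, a hexamer bound by basic helix-loop-helix factors. The windows are RefSeq's on GRCm38.p6, from 250 bases before to 50 after a start site, printed in the direction of the gene, with the E-box in capitals. They are chr7:28301736-28302035 for Dll3 and chr17:15376883-15377182 for the second of 2 Dll1 windows, both on the minus strand.
Dll3: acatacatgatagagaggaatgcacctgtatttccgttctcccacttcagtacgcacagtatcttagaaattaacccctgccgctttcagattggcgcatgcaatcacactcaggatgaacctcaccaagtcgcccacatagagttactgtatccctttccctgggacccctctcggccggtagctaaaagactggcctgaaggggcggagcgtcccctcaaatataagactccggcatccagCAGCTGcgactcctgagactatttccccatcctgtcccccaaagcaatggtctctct
Dll1: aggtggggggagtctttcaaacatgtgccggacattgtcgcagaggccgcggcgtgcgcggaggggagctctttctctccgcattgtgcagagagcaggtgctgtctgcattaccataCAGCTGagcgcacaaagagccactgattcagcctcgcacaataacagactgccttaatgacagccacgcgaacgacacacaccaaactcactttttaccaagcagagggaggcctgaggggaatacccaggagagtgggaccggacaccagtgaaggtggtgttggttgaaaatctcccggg
The E-box begins 7 bases before the start of Dll3 and 132 bases before that of Dll1. CAGCTG reads the same on both strands and was found in 5 of the 10 windows of the members: also in that of Jag1, 82 bases before the start, and in both of Hes6, at 171 and 150 bases. It occurs in 16.3% of all 32851 mouse windows, so a match describes the letters and not a bound site.

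Dll3 lies at chr7:28293553-28302238 on the minus strand. Glioma levels were 38.7, 16.97, 44.9 and 30.0 CPM in the asymptomatic group, 25.0, 31.9, 25.6 and 43.5 in the early group, and 32.3, 67.8, 51.8 and 40.1 in the late group. Surrounding levels were 22.0, 11.6, 29.6 and 8.58 CPM, then 6.95, 14.9, 18.04 and 21.3, then 3.96, 5.99, 1.90 and 21.6. The groups did not overlap in the early or late stage, and within the late surrounding group 3057E was far above the other 3. Dll3 was 2.77-fold higher in glioma cells over the 3 stages (log2 fold change 1.47 ± 0.31, adjusted p = 0.000576, higher in 12 of 12 pairs). By stage the values were 0.86 ± 0.53 (adjusted p = 0.31), 1.04 ± 0.53 (0.239) and 2.51 ± 0.56 (0.00162). Without 3057E the late value was 3.61 ± 0.53 (adjusted p = 1.38e-05), where 42.8% of all genes passed.

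Dll1 lies at chr17:15367354-15376872 on the minus strand, with a long noncoding RNA on the opposite strand over part of it, and since the strand setting of the counting is not given, reads of the pair cannot be separated. Glioma levels were 25.8, 16.97, 29.2 and 25.2 CPM in the asymptomatic group, 45.3, 19.5, 25.8 and 16.3 in the early group, and 11.7, 10.4, 10.6 and 24.2 in the late group. Surrounding levels were 15.2, 12.5, 23.1 and 10.02 CPM, then 15.6, 18.4, 12.4 and 12.0, then 6.83, 2.03, 0.69 and 15.4. In both populations the late libraries 3054A, 3054B and 3054C were the lowest and 3057E stood with the earlier stages. Over the 3 stages Dll1 was 1.88-fold higher in glioma cells (0.91 ± 0.32, adjusted p = 0.024, 12 of 12 pairs). The call was lost without 3108C (adjusted p = 0.0653), without 3228A (0.0542), without 3229B (0.0797) and without both 3108D and 3109D (0.0686). In the late group alone Dll1 did not pass (1.18 ± 0.56, adjusted p = 0.108), but it passed without 3057E (1.72 ± 0.52, adjusted p = 0.0105) and with the tumour code as a block (1.74 ± 0.45, adjusted p = 0.00824).

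Jag1, the Jagged-family ligand, showed no difference between populations that passed the test. Its log2 fold change was -0.11 ± 0.30 over the 3 stages (adjusted p = 0.782, lower in 7 of 12 pairs), and it lies at chr2:137081456-137116644 on the minus strand. Levels spread widely within groups: 13.7 to 31.7, 5.16 to 29.1 and 15.04 to 57.4 CPM in glioma and 5.14 to 24.7, 13.2 to 35.1 and 21.4 to 49.4 in surrounding libraries, in stage order. Both libraries of 3057E held the highest Jag1 of their population. The ligands' balance shifted with population: Dll3 per kilobase was 1.43 to 9.91 times Jag1 in glioma libraries (median 3.43) and 0.181 to 3.41 times in surrounding libraries (median 1.14), where all 4 late libraries were below 1. Dll1 was below Dll3 per kilobase in 11 of 12 glioma libraries.

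Hes5 and the Hey genes are textbook targets of the RBPJ complex in neural progenitors and vessels. The promoter windows of Hes5 and Hey2 are printed because they were the only ones among the members' windows that held the RBPJ core TGGGAA or its reverse complement TTCCCA, in capitals. They are chr4:154960673-154960972 on the plus strand for Hes5 and chr10:30842734-30843033 on the minus strand for Hey2 (RefSeq, GRCm38.p6).
Hes5: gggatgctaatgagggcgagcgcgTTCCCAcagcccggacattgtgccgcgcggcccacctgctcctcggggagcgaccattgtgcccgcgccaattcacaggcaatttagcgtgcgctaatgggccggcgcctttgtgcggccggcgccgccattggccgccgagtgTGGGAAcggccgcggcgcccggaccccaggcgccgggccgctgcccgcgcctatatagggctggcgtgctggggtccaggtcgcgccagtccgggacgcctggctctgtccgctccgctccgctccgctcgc
Hey2: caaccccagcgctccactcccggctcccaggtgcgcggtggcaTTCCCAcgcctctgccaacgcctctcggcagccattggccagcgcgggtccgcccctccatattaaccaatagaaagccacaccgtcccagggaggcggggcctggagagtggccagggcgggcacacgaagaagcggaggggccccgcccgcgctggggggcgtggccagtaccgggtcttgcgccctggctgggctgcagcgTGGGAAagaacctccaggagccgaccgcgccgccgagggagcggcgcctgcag
In Hes5 the matches begin 226 and 82 bases before the start, and in Hey2 207 and 3 bases before it, the latter running across the start. The core occurs in 25.6% of all 32851 windows searched on both strands. Windows were found for 8 of the 10 members, not for Hes1 and Hey1.

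Hes5 was the member with the fewest reads, 449 expected counts in all 24 libraries, and it overlaps a noncoding transcript on the opposite strand at chr4:154960923-154962371. Its expected counts were not whole in 17 libraries, so they too rest in part on how shared reads were divided. Glioma levels were 3.08, 1.26, 3.74 and 1.17 CPM in the asymptomatic group, 1.33, 0.894, 1.66 and 1.32 in the early group, and 1.69, 0.626, 2.73 and 1.24 in the late group. Surrounding levels were 2.60, 1.35, 4.03 and 3.07 CPM, then 0.838, 1.09, 1.06 and 0.89, then 0, 0.113, 0.259 and 0.297. The late surrounding libraries held 0, 1, 3 and 4.34 expected counts of Hes5, all below every other library in the series. Late glioma libraries held 7 to 35.9 counts. The late difference between populations was 3.06 ± 0.62 on the log2 scale (adjusted p = 0.000747, 4 of 4 pairs), on counts so low that the size of the fold is uncertain. Asymptomatic and early values were -0.25 ± 0.52 (adjusted p = 0.788) and 0.42 ± 0.54 (0.679), with overlapping ranges. The call over the 3 stages (1.08 ± 0.32, adjusted p = 0.00891) was thus made of unlike stages, and glioma cells were higher in only 8 of 12 pairs.

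Hey2 and Hey1, repressors related to the Hes factors, were both higher in glioma cells. Glioma Hey2 (chr10:30832359-30842801, minus strand) stood at 21.9, 8.82, 28.1 and 23.8 CPM in the asymptomatic group, 33.6, 21.7, 17.2 and 11.1 in the early group, and 26.1, 70.5, 62.5 and 22.3 in the late group. Surrounding Hey2 stood at 17.9, 10.6, 27.3 and 18.6 CPM, then 18.2, 22.1, 22.1 and 15.7, then 7.67, 10.9, 5.17 and 19.5. Glioma 3054B and 3054C were the highest of the 24 libraries, and only the late populations did not overlap. By stage the differences were 0.15 ± 0.44 (adjusted p = 0.857), 0.10 ± 0.44 (0.918) and 2.06 ± 0.46 (0.00151), the last 4.18-fold. Over the 3 stages Hey2 was 0.77 ± 0.26 higher (adjusted p = 0.0172, 8 of 12 pairs). That call was lost without 3054B (adjusted p = 0.0525), 3054C (0.0539), 3108C (0.0558) or 3229B (0.0597), and without both 3108D and 3109D (0.0524).

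Hey1 (chr3:8663359-8667256, minus strand) stood in glioma libraries at 22.3, 21.5, 27.1 and 27.8 CPM in the asymptomatic group, 46.5, 26.3, 35.6 and 36.6 in the early group, and 18.1, 20.3, 32.5 and 31.3 in the late group. The surrounding values were 14.4, 18.7, 21.9 and 21.9 CPM, then 19.4, 32.1, 20.7 and 18.1, then 10.9, 6.44, 6.72 and 19.0. Early glioma libraries were the highest as a group, and surrounding 3054A, 3054B and 3054C were the lowest of the 24. Hey1 was 1.70-fold higher in glioma cells over the 3 stages (0.76 ± 0.17, adjusted p = 0.00106, 11 of 12 pairs) and was called in the late group (1.24 ± 0.30, adjusted p = 0.00324), where the ranges overlapped through surrounding 3057E. Hey2 per kilobase was 0.505 to 2.47 times Hey1 in late glioma libraries and 0.215 to 0.737 times in the 8 earlier ones.

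Hes1, a repressor found in many cell types, and Hes6, a proneural-associated factor that opposes Hes1, showed no difference between populations that passed the test. Hes1 (chr16:30064384-30067796, plus strand) ranged from 7.39 to 17.3 CPM in glioma (median 12.6) and from 7.90 to 19.1 in surrounding libraries (median 14.8). Hes6 (chr1:91411483-91414038, minus strand) ranged from 5.45 to 14.9 CPM (median 9.21) and from 3.72 to 11.3 (median 8.36). The log2 fold changes over the 3 stages were -0.23 ± 0.17 for Hes1 (adjusted p = 0.275) and 0.19 ± 0.20 for Hes6 (adjusted p = 0.449). Neither passed at any stage, with values between -0.31 and 0.39. Hes1 per kilobase was 1.64 to 18.4 times Hes5 in glioma libraries and 30.0 to 111 times in the 3 late surrounding libraries where Hes5 was detected. The late surrounding ratios rest on the very low Hes5 counts given above, so their size is uncertain.

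No member passed in any comparison of stages within a population. Among all genes, 0.273% passed between late and early glioma cells, 0.158% between late and asymptomatic glioma cells and 0% between early and asymptomatic glioma cells, where 810 of 16494 genes had an unadjusted p under 0.05. In surrounding cells 1.48% passed between late and early, 0% between late and asymptomatic (2822 of 17616 at an unadjusted p under 0.05) and 0% between early and asymptomatic (645). In glioma cells the members with the lowest p were Notch2 (late minus early 1.76 ± 0.44, adjusted p = 0.0923, groups not overlapping), Dll1 (-0.89 ± 0.36, adjusted p = 0.206) and Hey2 (1.12 ± 0.45, adjusted p = 0.212). Hey2 was 1.13 ± 0.45 in the late against the asymptomatic glioma cells (adjusted p = 0.27). In surrounding cells Hes5 was -2.41 ± 0.66 in the late against the early group (adjusted p = 0.0963) and -3.88 ± 0.66 against the asymptomatic group (adjusted p = 0.13), with no overlap in either. Surrounding Notch2 was 1.17 ± 0.39 (adjusted p = 0.164) and 1.26 ± 0.39 (adjusted p = 0.165) in the same comparisons, and Hey1 -1.10 ± 0.36 (0.159) and -0.83 ± 0.36 (0.277). Between the early and asymptomatic groups every member had an adjusted p of at least 0.936, the widest values being Hes5 at -1.47 ± 0.57 in surrounding cells and Notch2 at -0.97 ± 0.44 in glioma cells. Comparisons within a population share groups and are not independent.

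These counts depended on tumour 3057E and on the test used. With all 12 tumours, limma-voom called 6 members between late and early surrounding cells (29.5% of all genes) and 5 between late and asymptomatic surrounding cells (23.3%), and DESeq2 called 1 (6.48%) and 2 (5.67%). Without 3057E, the late group is 3054A, 3054B and 3054C, which share a code series, and 6 members passed in late surrounding cells against each earlier group: Dll1, Dll3, Hes5, Hey1 and Hey2 fell and Notch2 rose. Of all genes, 18.9% then passed against the early and 16.4% against the asymptomatic surrounding cells. Against the asymptomatic surrounding cells, Dll1 fell by 2.26 ± 0.61 on the log2 scale (adjusted p = 0.0289), Dll3 by 2.20 ± 0.54 (0.0221), Hes5 by 4.28 ± 0.77 (0.00909), Hey1 by 1.27 ± 0.31 (0.0215) and Hey2 by 1.25 ± 0.35 (0.0322), and Notch2 rose by 1.5 ± 0.34 (0.0179). Against the early surrounding cells the same 6 passed, from Hes5 at -2.81 ± 0.76 (adjusted p = 0.0259) to Notch2 at 1.41 ± 0.34 (adjusted p = 0.0173). In glioma cells without 3057E, Dll1 fell against both earlier groups (-1.31 ± 0.32, adjusted p = 0.0155, and -1.17 ± 0.32, adjusted p = 0.0275) and Notch2 rose against the early group (1.63 ± 0.46, adjusted p = 0.0303), beside 17.2% of all genes against the early and 14.7% against the asymptomatic group. Without 3057E late glioma Hey2 stayed short of the threshold (1.34 ± 0.44 against the asymptomatic group, adjusted p = 0.0588). Over all alternatives Hey2 passed in 1 of 20 against the asymptomatic and in 1 of 20 against the early glioma cells. Marker sums moved as well. The OPC sum of the 3 remaining late surrounding libraries was 868 to 4940 CPM, against 5640 to 15900 in the 8 earlier ones, and the astrocyte sum 261 to 1030 against 1490 to 6280. Higher in the same 3 were the monocyte and macrophage sum (2520 to 4930 CPM against 850 to 1890) and the dissociation and immediate early sum (2840 to 7920 against 1120 to 2780). In glioma cells the astrocyte sum of the 3 was 857 to 972 CPM against 1580 to 2540 in the 8 earlier libraries. The glioma endothelial sum was 16.6, 136 and 82.9 CPM in 3054A, 3054B and 3054C, against 13.1 to 69.6 in the asymptomatic and 5.85 to 14.3 in the early group. Their part in these stage differences was not tested.

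**Figure D4:**
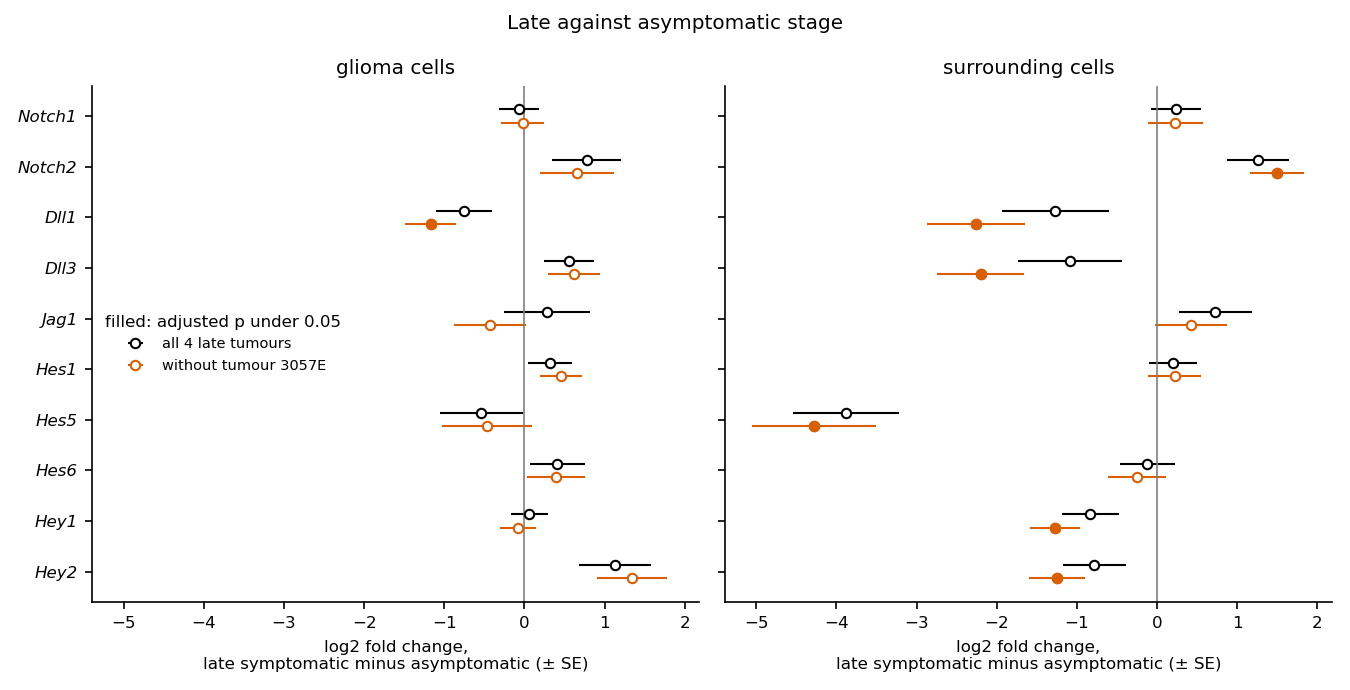
Log2 fold change of each member, late symptomatic minus asymptomatic, with its standard error, in glioma cells (left) and surrounding cells (right). Black symbols use all 4 late tumours and orange symbols leave out 3057E, and filled symbols have an adjusted p under 0.05. No black symbol is filled, while orange symbols are filled for Dll1 on the left and for Notch2, Dll1, Dll3, Hes5, Hey1 and Hey2 on the right.

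Whether the stage difference itself differed between populations was tested as an interaction, glioma minus surrounding. No member passed, and 0% of all 18810 genes did for early against asymptomatic (290 at an unadjusted p under 0.05), 0% for late against early (1167) and 0% for late against asymptomatic (1585). DESeq2 called no member in these interactions either. In both that involve the late group limma-voom called Dll3 and Hey2, with 5.92% of all genes called against early and 6.84% against asymptomatic. The largest values, late against asymptomatic, were Hes5 at 3.32 ± 0.81 (adjusted p = 0.50), Hey2 at 1.91 ± 0.63 (adjusted p = 0.50) and Dll3 at 1.65 ± 0.75 (adjusted p = 0.577). With all 12 tumours, edgeR and DESeq2 thus did not show the late differences of Dll3, Hes5, Hey1 and Hey2 to exceed those of the earlier stages. Without 3057E, 7.45% of all genes and 3 members passed: Dll3 (2.78 ± 0.64, adjusted p = 0.0114), Hes5 (3.77 ± 0.91, adjusted p = 0.0154) and Hey2 (2.56 ± 0.59, adjusted p = 0.0116). For late against early, Dll3 (2.58 ± 0.64, adjusted p = 0.0268) and Hey2 (2.59 ± 0.59, adjusted p = 0.0184) passed without it, as did 4.51% of all genes.

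Of 50 other genes of the pathway, 46 were tested (Hes2, Hes3, Hes7 and Helt were not). Over the 3 stages 19 were lower in glioma cells, 11 were higher and 16 did not pass (24.2% of all genes were lower and 22% higher), with a median log2 fold change of -0.26 against 0.06 over all genes. Receptors, ligands and effectors outside the members included Notch3, a receptor of mural cells (-1.90 ± 0.36, adjusted p = 0.000173), the endothelial ligand Dll4 (-4.63 ± 0.69, adjusted p = 9.93e-06), Jag2 (-2.34 ± 0.23, adjusted p = 3.62e-08) and the vascular effector Heyl (-3.07 ± 0.33, adjusted p = 1.34e-07). Dll4 had 0 to 3 counts in 11 glioma libraries and 19 in glioma 3108C, so its fold is uncertain. Rbpj, the DNA-binding partner of cleaved receptors, was also lower (-0.88 ± 0.15, adjusted p = 4.07e-05), as were the sheddases Adam10 (-1.04 ± 0.13) and Adam17 (-0.92 ± 0.13), the inhibitor Numb (-1.29 ± 0.13), the ubiquitin ligase Dtx4 (-1.5 ± 0.18) and the glycosyltransferase Lfng (-1.85 ± 0.39), which modifies receptors. Higher in glioma cells were the ligand-like Dner (1.11 ± 0.32), Dtx1 (0.83 ± 0.22), the gamma-secretase subunit Aph1b (0.82 ± 0.17), the ligand-acting ubiquitin ligase Neurl1b (0.66 ± 0.24) and Poglut1 (0.50 ± 0.09), another receptor glycosyltransferase. In the asymptomatic, early and late groups 1, 1 and 6 of the 46 were higher and 9, 10 and 19 lower. Of all genes 13.8%, 13.5% and 35.3% passed at these stages, in the late group 15.4% higher and 19.9% lower. Between stages no gene of the list passed in either population. The endothelial and mural marker sums given for Notch2 moved with Notch3, Dll4 and Heyl, and their part was not tested.

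**Figure D5:**
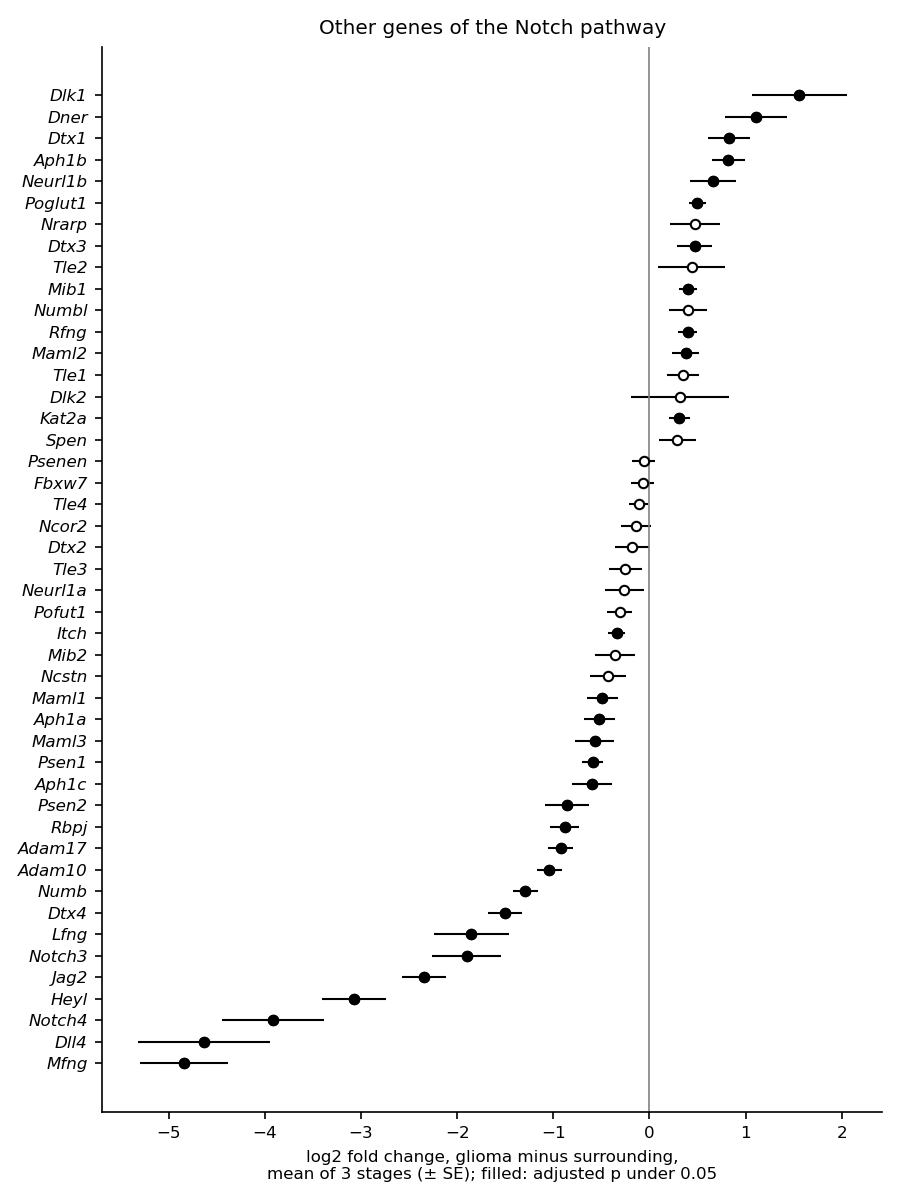
Log2 fold change, glioma minus surrounding cells averaged over the 3 stages, of the 46 tested genes of the Notch pathway outside the 10 members, with standard errors (bars). Filled circles have an adjusted p under 0.05, and genes are ordered by value. Dll4 at -4.63 is near the bottom and Dner at 1.11 near the top, and 19 filled circles lie below 0 and 11 above.

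Among the Olig and Id factors, Olig2 (1.07 ± 0.27, adjusted p = 0.00219) and Olig1 (0.99 ± 0.28, adjusted p = 0.00628), which are also OPC markers, were higher in glioma cells over the 3 stages. By stage both passed only in the late group (Olig2 at 1.64 ± 0.47, adjusted p = 0.00909, and Olig1 at 1.54 ± 0.49, adjusted p = 0.0183). Id proteins block basic helix-loop-helix factors by binding their partners. Of the 4 Id genes 3 were lower in glioma cells (24.2% of all genes were): Id3 at -1.63 ± 0.33 (adjusted p = 0.000312) and, named after their values were seen, Id1 at -2.40 ± 0.44 (0.000117) and Id4 at -1.44 ± 0.39 (0.00435). By stage Id3 passed in the asymptomatic group (-2.04 ± 0.57, adjusted p = 0.0175) and the early group (-2.41 ± 0.59, adjusted p = 0.006), but not in the late group.

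For each member, the genes with the most similar course over the 24 libraries were found by the root mean square difference of log2(CPM + 1), each gene centred on its own mean. Nearest to Notch1 were Spen (0.21), Ncoa6 (0.24) and Hcfc1 (0.24), and nearest to Notch2 were Rin3 (0.40), Itpripl2 (0.42) and Tgif1 (0.43). Dll1 ran closest to Tril (0.29), Lrp3 (0.29) and Sez6l (0.30), and Dll3 to Brinp3 (0.38), Slc27a6 (0.39) and Nsg2 (0.39). Hey2 ran closest to Tsc22d1 (0.39), Acan (0.44) and Mpzl1 (0.46), and Hey1 to Agpat5 (0.25), Alg2 (0.26) and Gna11 (0.27). Jag1 had no near match, the smallest difference being 0.50 to Chst15. Nearest to Hes1, Hes5 and Hes6 were Ghdc (0.27), Nadk2 (0.41) and Mpdu1 (0.24). Only genes whose log2(CPM + 1) averaged 3 or above could be named as nearest, which left out Hes5. No other member was among the 3 nearest genes of a member.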

How the data were processed

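The authors deposited a single table of RSEM expected counts. The submitters' processing notes name RSEM 1.3.1, STAR 2.7.5c and the build GRCm38, and the labels' protocols describe polyA RNA and a total RNA library kit. The annotation release, the strand setting and any use of molecular identifiers are not given in the sources used here. Rounding the expected counts to whole numbers shifted each library's sum by 95.2 at most. No 2 libraries of a group were copies (lowest chi-square per degree of freedom 22.2). Libraries of a group came from separately coded tumours, and p-values measure the spread between libraries within groups. Both libraries of a tumour entered the main population and interaction tests as if independent. Those p-values therefore leave out the pairing, which enters only in the alternative with a block by tumour code.

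Genes with a minimum count of 10 (filterByExpr) were tested with edgeR 4.0.16 in R 4.3.3: TMM scaling, robust quasi-likelihood fits, Benjamini-Hochberg over all genes tested, called at an adjusted p under 0.05 with no fold limit. Population and interaction contrasts came from 1 fit of 24 libraries in 6 groups, stage contrasts from the 12 libraries of a population. Standard errors are the log2 fold change over the square root of F. Coordinates and exon lengths are from GENCODE M21, which held 98.6% of the identifiers. The fits were tested on simulated counts. Alternatives used DESeq2 1.42.0, its size factors, limma 3.58.1 (voom with sample weights), other filters, a block by tumour code and each tumour left out. Libraries with the same code come from the same animal per the labels. Their deviations from group means correlated at 0.084 to 0.414 in 10 tumours, at 0.037 in 3108D and at -0.002 in 3109D, and at 0.37 and 0.259 when these were crossed. The 10 members were given by symbol and named throughout. Of the other pathway genes and of the Olig and Id factors, up to 5 called genes a direction were named by fold where log2(CPM + 1) averaged 3 or above, plus Notch3, Dll4, Jag2, Heyl, Rbpj and Lfng. One further listed gene is not reported here. The members and gene lists were chosen with earlier results of these data known.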

Additional observations from a re-analysis of the deposited data

Results flagged for a closer look

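In 60 groups of 4 libraries (each member in each population and stage), Dixon's test flagged 5 values that stood far from the other 3 of their group, and chance flags about 1 in 20 groups. Glioma 3109D held 5.84 CPM of Notch2, above the other 3 early glioma libraries. Surrounding 3108C held 128 CPM of Notch2, above the other early surrounding libraries. Glioma 3057E held 24.2 CPM of Dll1 and 57.4 CPM of Jag1, both above the other late glioma libraries. Surrounding 3229B held 5.14 CPM of Jag1, below the other asymptomatic surrounding libraries, and had the lowest Notch1 of all libraries, 55.6 CPM. In that library the mature oligodendrocyte markers summed to 31400 CPM, the astrocyte markers to 6280 and the neuron markers to 620, each the highest of the series. Their part in these levels was not tested.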

How the results depend on the processing

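Of 2657 member values under alternatives, 2491 kept their direction and side of the threshold, 89 changed sign without being called, 25 lost a call and 52 gained one, and no called value reversed. Over the 3 stages, members called went from 7 to 4 without 3108D and 3109D (35.6% of all genes called, 46.3% with them). Leaving out 1 tumour gave 4 to 7 (4 without 3108C and 4 without 3229B). The share of all genes is not set beside those counts. They therefore do not show whether members lost calls more often than other genes. Dll3, Hey1 and Notch2 were called in all 21 alternatives and Hes5 in the 20 that tested it. With the tumour code as a replicate block 2 members were called in the asymptomatic group, also with glioma 3108D and 3109D exchanged (2), beside 17.7% and 19.9% of all genes. The block changed no count of members at the early stage and added Dll1 at the late stage. Between late and early glioma cells DESeq2 called 1 member (6% of all genes), voom 3 (15.8%), and leaving out 1 tumour 0 to 2. Between late and asymptomatic glioma cells voom called 2 (18.1%) and leaving out 1 tumour gave 0 to 1. Late against early surrounding cells gave 1 with DESeq2 (6.48%), 1 with all 24 libraries in 1 fit (2.3%), 6 with voom (29.5%) and 0 to 6 on leaving out 1 tumour. Late against asymptomatic surrounding cells gave 2 (5.67%), 1 (1.2%), 5 (23.3%) and 0 to 6 in the same order. Late interactions gave 2 and 2 with voom (5.92% and 6.84%) and 0 to 2 (against early) and 0 to 3 (against asymptomatic) on leaving out 1 tumour. In each of these stage and interaction comparisons, the highest count on leaving out 1 tumour was without 3057E, where 4.51% to 18.9% of all genes were called. The cause of these changes was not tested. DESeq2's size factors moved the median of all genes in the late population comparison from 0.04 to -0.06, and no member's call changed there. At a minimum count of 50 Hes5 was not tested. Depth limits Hes5 most.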
